A study of Mus musculus with 6 samples.

Results

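The serine/arginine-rich (SR) splicing factor genes were examined in bEND.3 cells, a mouse brain endothelial cell line, after knockdown of the long non-coding RNA Gm39822. The members were chosen by gene name and number 10, Srsf1, Srsf2, Srsf3, Srsf4, Srsf5, Srsf6, Srsf7, Srsf9, Srsf10 and Srsf11, among the 49315 genes of the count table. All 10 passed the filter on low counts, as did 18234 genes in all. Cells were transfected with an antisense locked nucleic acid GapmeR, an oligonucleotide that directs cleavage of its target RNA, against Gm39822 (4 samples), or with a negative control GapmeR (2 samples), each at 100 nM. Both groups are the same cell line with no other allele or agent in the labels, and the knockdown rests on 1 GapmeR design, so an effect of losing Gm39822 and another effect of that oligonucleotide cannot be told apart. No source used here says that the samples of a group came from separate cultures, so the p-values measure the spread between these samples, which may be technical.

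Total counts per sample were 29261988 to 37117934, and the members had between 468 and 15536 counts in a sample. Levels are given in CPM, counts relative to library size after trimmed mean of M-values (TMM) scaling, and a limit of 3 counts was 0.0771 to 0.110 CPM, which covers counting error only. Gm39822 itself had 61 and 56 counts in the controls but 2, 1, 4 and 2 with its GapmeR, with a log2 fold change of -4.82 (SE 0.41, edgeR adjusted p = 8.8e-08). All 10 endothelial markers, Pecam1 and Cdh5 among them, were detected in every sample, with a summed level of 6430 to 7401 CPM in the GapmeR samples and 8472 to 8709 CPM in the controls, and the lowest sum was in GapmeR 2. Summed markers of macrophages were 202 to 373 CPM with the GapmeR and 166 to 171 CPM in the controls, those of smooth muscle cells and pericytes 8.32 to 12.5 against 1.75 to 1.86 CPM, those of astrocytes and neurons 24.9 to 40.5 against 53.4 to 54.2 CPM, and those of epithelial cells 0.797 to 1.02 against 0.329 to 0.627 CPM. In the smooth muscle and pericyte list, 2 of 5 markers tested were higher at an edgeR adjusted p under 0.05 (25.4% of all genes). Myh11 alone made up 5.37 to 5.93 CPM of that sum with the GapmeR, against 0.365 and 0.251 CPM in the controls. The part of these marker differences in the results on the SR genes was not tested.

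SR proteins bind exonic enhancer sequences in pre-mRNA through RNA recognition motifs and recruit the splicing machinery through a domain rich in arginine and serine. SRPK kinases phosphorylate that domain in the cytoplasm and CLK kinases in the nucleus, and the importin transportin-SR, encoded by Tnpo3, carries phosphorylated SR proteins into the nucleus. Many SR genes limit their own output by splicing in a poison exon, which sends the transcript to nonsense-mediated decay. Some members shuttle to the cytoplasm and act in mRNA export and translation.

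The promoter windows of 4 members are shown because these genes mark the extremes of the responses described further on. They are Srsf6, with the largest fold change of the family, Srsf9, with the lowest, Srsf2, the member with the highest level per length of merged exons, and Srsf5, with the widest spread between GapmeR samples. Each window runs from 250 bases before to 50 bases after an annotated start, is taken from RefSeq on mm10 and is written 5′ to 3′ on the strand of the gene. Capitals mark a CCAAT box, a TATA box (TATAAA) or an ETS core (CCGGAAG), or the reverse complement of one. The windows lie at chr2:162931258-162931557 on the plus strand (Srsf6), chr5:115326927-115327226 on the plus strand (Srsf9), chr11:116853045-116853344 on the minus strand (Srsf2) and chr12:80945249-80945548 on the plus strand (Srsf5). The Srsf2 window lies within the gene's interval, chr11:116849897-116853675, so it belongs to a start inside the gene and not to the outermost one.
Srsf6: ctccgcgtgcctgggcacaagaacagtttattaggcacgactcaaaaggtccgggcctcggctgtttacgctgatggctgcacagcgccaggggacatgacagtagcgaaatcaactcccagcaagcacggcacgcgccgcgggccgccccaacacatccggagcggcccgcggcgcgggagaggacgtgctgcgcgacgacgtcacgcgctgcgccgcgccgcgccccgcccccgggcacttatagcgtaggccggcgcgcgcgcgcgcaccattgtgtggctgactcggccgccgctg
Srsf9: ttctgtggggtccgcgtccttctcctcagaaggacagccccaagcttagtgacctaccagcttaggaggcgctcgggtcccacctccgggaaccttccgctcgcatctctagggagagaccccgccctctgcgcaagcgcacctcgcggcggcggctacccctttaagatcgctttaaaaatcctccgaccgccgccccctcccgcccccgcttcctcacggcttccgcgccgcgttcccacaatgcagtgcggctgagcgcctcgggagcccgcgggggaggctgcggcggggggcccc
Srsf2: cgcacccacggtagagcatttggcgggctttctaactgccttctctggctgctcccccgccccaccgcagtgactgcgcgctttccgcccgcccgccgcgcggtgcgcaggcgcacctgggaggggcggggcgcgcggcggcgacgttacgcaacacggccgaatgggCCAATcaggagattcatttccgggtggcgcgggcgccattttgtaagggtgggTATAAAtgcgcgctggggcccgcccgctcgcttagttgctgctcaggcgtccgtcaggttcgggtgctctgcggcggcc
Srsf5: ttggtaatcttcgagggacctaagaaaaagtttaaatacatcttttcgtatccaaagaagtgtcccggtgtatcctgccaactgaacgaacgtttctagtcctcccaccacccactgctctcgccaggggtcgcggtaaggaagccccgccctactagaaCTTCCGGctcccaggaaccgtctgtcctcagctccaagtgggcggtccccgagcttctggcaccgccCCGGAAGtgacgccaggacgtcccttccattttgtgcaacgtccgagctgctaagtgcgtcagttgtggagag

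All 10 members matched a window, and Srsf4 and Srsf11 had additional ones. Members are counted by gene and the background by window, so the values below are not on the same footing. The GC content of the members' windows was 56% (Srsf5) to 78.3% (Srsf4), against a median of 53% over all windows. Both strands were searched for 5 motifs, none of which contains another, in 32544 windows of the same length. CCAAT was found in windows of 4 members, Srsf1, Srsf2, Srsf3 and Srsf10, and in 37.4% of all windows. The ETS core was found in windows of 4 others, Srsf4, Srsf5, Srsf7 and Srsf11, and in 8.91% of all windows, and TATAAA in those of Srsf2 and Srsf3 and in 13.6% of all. The E-box CACGTG (7.17% of all windows) and the cyclic AMP response element TGACGTCA (1.80%) matched no window of a member. The windows of Srsf6 and Srsf9 held none of the 5 motifs, although the fold changes of these genes lay at opposite ends of the family. The matches are a description of letters and not of bound sites.

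Gm39822 knockdown went with higher levels of most SR genes, by moderate amounts. In the quasi-likelihood fit of edgeR, adjusted by Benjamini-Hochberg over all 18234 genes, 7 of 10 members rose and 3, Srsf5, Srsf9 and Srsf10, did not pass. No member was called lower, at an unadjusted p under 0.05 or by DESeq2 either. Over all genes tested, 45.3% were called, 25.4% higher and 20.0% lower. In 9 of 10 members every GapmeR sample lay above both controls, against 31.9% of all genes, and no member had every GapmeR sample below them, against 27.3%. The members' median log2 fold change was 0.32, beside 0.03 over all genes. Most members are abundant, and among the 4301 genes tested with a mean of at least 50 CPM, 14.7% were called higher and the median log2 fold change was -0.12. Only Srsf6, 1 of 10, was called with a change of at least 1.5-fold. Over all genes 25.4% were so called, with 17.8% of all genes higher. Among the 4301 genes of at least 50 CPM, 151 were so called higher and 295 lower.

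The calls depended on the number of controls. Without negative control 1, the members called were Srsf4, Srsf6 and Srsf11, 3 of 10, and without negative control 2 they were Srsf1, Srsf6 and Srsf11, also 3 of 10; in these fits the remaining control is assumed to vary as the GapmeR samples do. Over all genes, 19.5% and 18.3% were called higher in these fits, and the members' median log2 fold change was 0.33 and 0.36. Scaling by library size alone turned the split over all genes from 4625 higher and 3643 lower to 6106 and 2135, and moved the median over all genes by 0.15 on the log2 scale, a shift that all genes share, the members included.

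**Figure D1:**
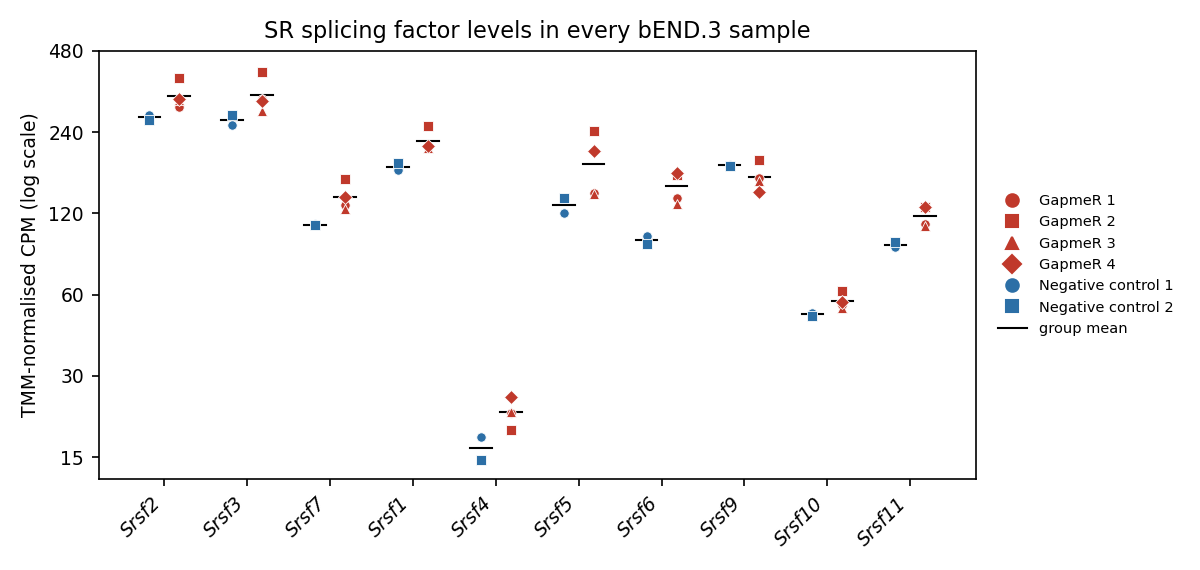
Levels of the 10 SR genes in each sample, in TMM-normalized CPM on a log axis, with points for the 4 GapmeR and 2 negative control samples and a line at each group mean. The GapmeR points sit above both control points for every gene except Srsf9, whose groups overlap.

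Srsf2, Srsf3 and Srsf7 carry a single RNA recognition motif. Srsf2, also known as SC35, is a marker of nuclear speckles (ENSMUSG00000034120, chr11:116849897-116853675, minus strand). Its level was 296, 380, 316 and 317 CPM in GapmeR 1 to 4 and 278 and 267 CPM in the controls. Every GapmeR sample was above the controls, GapmeR 1 by the least. The GapmeR mean of 327 ± 36.1 CPM (SD, n = 4) compared with 272 ± 8.06 CPM in the controls (SD, n = 2), and the gene rose by a log2 fold change of 0.26 (SE 0.09, adjusted p = 0.027).

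Srsf3, the smallest SR protein, also links splicing to mRNA export (ENSMUSG00000071172, chr17:29032660-29043372, plus strand). It stood at 319, 399, 287 and 313 CPM with the GapmeR and at 256 and 278 CPM in the controls. The groups were separated by 8.45 CPM, between GapmeR 3 and negative control 2. Srsf3 rose by a log2 fold change of 0.30 (SE 0.11, adjusted p = 0.042), the call nearest to the threshold. Without GapmeR 1 its adjusted p was 0.056, and without negative control 1 it was 0.22, the highest over the alternatives.

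Srsf7, also known as 9G8, carries a zinc knuckle beside its RNA recognition motif and takes part in mRNA export (ENSMUSG00000024097, chr17:80200080-80207369, minus strand). It measured 129, 161, 124 and 137 CPM with the GapmeR, against 110 and 108 CPM. GapmeR 2 was highest and the controls differed little. The log2 fold change was 0.34 (SE 0.09, adjusted p = 0.0085).

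Srsf1, Srsf4, Srsf5, Srsf6 and Srsf9 carry a pair of RNA recognition motifs. Srsf1, also known as ASF/SF2, is the founding member and a shuttling protein (ENSMUSG00000018379, chr11:88046499-88053757, plus strand). Its levels were 211, 253, 210 and 213 CPM with the GapmeR against 173 and 184 CPM. GapmeR 2 stood apart from the other 3, which lay close together. Srsf1 rose by a log2 fold change of 0.31 (SE 0.09, adjusted p = 0.0074).

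Srsf4, also known as SRp75, has the longest arginine/serine-rich domain among classical SR proteins and was the least abundant member (ENSMUSG00000028911, chr4:131873530-131901725, plus strand). It had 21.9, 18.9, 22.1 and 25.0 CPM with the GapmeR and 17.8 and 14.7 CPM without. Here GapmeR 2 was the lowest GapmeR sample, 1.13 CPM above negative control 1. The log2 fold change was 0.44 (SE 0.12, adjusted p = 0.0059).

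Srsf5, also known as SRp40, varied more between GapmeR samples than any other member (ENSMUSG00000021134, chr12:80945495-80950507, plus strand). Its levels were 143, 242, 141 and 204 CPM, with 121 and 136 CPM in the controls. GapmeR 1 and 3 lay just above the controls, while GapmeR 2 and 4 lay far above them. The log2 fold change of 0.51, the next largest after that of Srsf6, had an SE of 0.27 and did not pass (adjusted p = 0.19). Its adjusted p was 0.042 by limma-voom. It was 1.8e-07 by edgeR in the replicate block, a fit on 4 samples paired by number with 1 residual degree of freedom. Srsf5 did not pass under any other alternative.

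Srsf6, also known as SRp55, changed the most (ENSMUSG00000016921, chr2:162931508-162937121, plus strand). It measured 137, 167, 130 and 169 CPM with the GapmeR, and the controls measured 98.8 and 92.1 CPM. The lowest GapmeR sample exceeded the highest control by 31.3 CPM, the widest such gap of the 10 genes. The GapmeR mean of 151 ± 20.2 CPM (SD, n = 4) over the control mean of 95.5 ± 4.74 CPM (SD, n = 2) gave a 1.58-fold rise, a log2 fold change of 0.66 (SE 0.11, adjusted p = 2e-04). Srsf6 and Srsf11 were the members that passed under all 13 alternatives.

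Srsf9, also known as SRp30c, has a short arginine/serine-rich domain and had the lowest fold change of the family (ENSMUSG00000029538, chr5:115327163-115333843, plus strand). Its levels were 162, 189, 157 and 143 CPM with the GapmeR and 182 and 179 CPM in the controls. GapmeR 2 lay above both controls and the other 3 below them, so the groups overlapped. The log2 fold change was -0.15 (SE 0.09, adjusted p = 0.20). Without GapmeR 2 it was -0.23 with an adjusted p of 0.0079, and without GapmeR 4 it was -0.09 with an adjusted p of 0.45. On the 4 samples of the replicate block it was -0.02, and with scaling by library size alone, which moves all genes by about 0.15, it was 0 within its SE of 0.09. Over the alternatives its adjusted p ranged from 0.0079 to 1.

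Srsf10 and Srsf11 are atypical members. Srsf10, also known as SRp38, acts as a general splicing repressor when dephosphorylated, as in heat shock (ENSMUSG00000028676, chr4:135855752-135869908, plus strand). It had 55.0, 61.8, 53.6 and 56.2 CPM with the GapmeR, against control values of 51.4 and 49.9 CPM. All GapmeR samples were above the controls, GapmeR 3 by 2.21 CPM. Srsf10 did not pass, with a log2 fold change of 0.16 (SE 0.08, adjusted p = 0.095) and a range of adjusted p from 0.0052 to 0.28 over the alternatives.

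Srsf11, also known as SRp54, is found in nuclear speckles (ENSMUSG00000055436, chr3:158010915-158036667, minus strand). It measured 110, 127, 108 and 126 CPM with the GapmeR and 90.3 and 93.5 CPM in the controls. GapmeR 2 and 4 were nearly equal and above GapmeR 1 and 3. Srsf11 rose by a log2 fold change of 0.36 (SE 0.08, adjusted p = 0.0024).

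**Figure D2:**
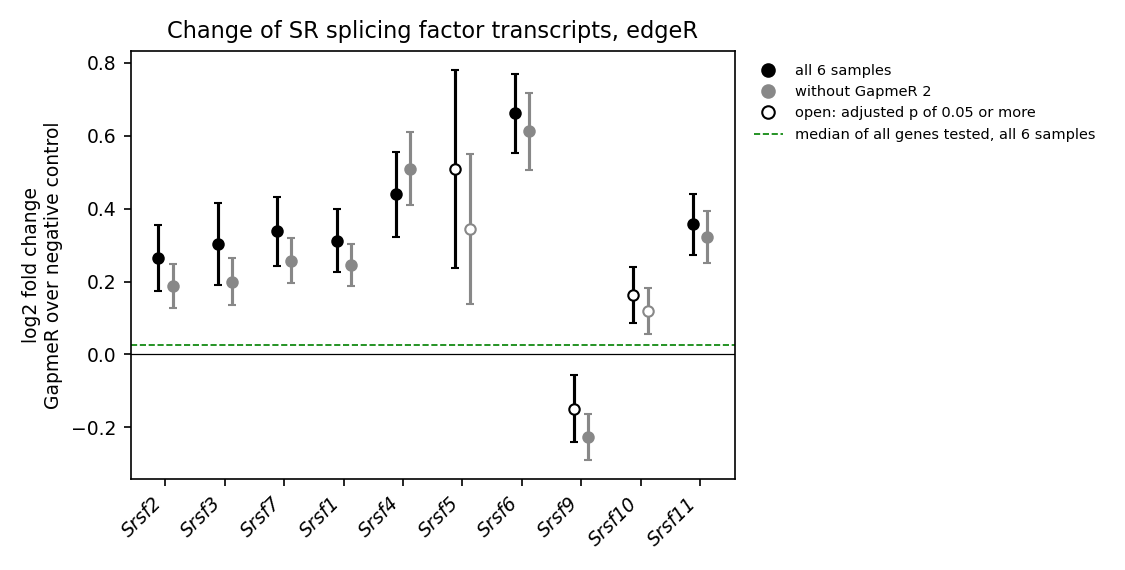
Log2 fold change, GapmeR over negative control, of each SR gene from edgeR fits over all genes, with all 6 samples (black) and without GapmeR 2 (grey); bars are standard errors, filled points passed an adjusted p under 0.05 and the dashed line is the median of all genes. With all samples Srsf6 lies highest at 0.66, Srsf5 has the widest error, and Srsf9 at -0.15 is the single value below 0 (0 within its error with scaling by library size alone).

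The GapmeR samples differed among themselves in a way that most members shared. GapmeR 2 was the highest GapmeR sample in 8 of 10 members, against 29.6% of all genes tested and 28.8% of those with at least 50 CPM. The same held for 76.9% of the hnRNP proteins, 73.3% of the kinases, phosphatases and importins of SR proteins and 64.3% of the SR-related proteins described further on, so the SR genes were not alone in it. The exceptions, Srsf4 and Srsf6, were highest in GapmeR 4. The median of the members' log2 differences from the control mean was 0.24, 0.49, 0.20 and 0.29 in GapmeR 1 to 4. GapmeR 2 is also the deepest library, with 37117934 counts, and had the lowest sum of endothelial markers, and the part of either in these levels was not tested. Without GapmeR 2, 7 members were still called higher, and they were the same 7, beside 26.8% of all genes.

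The range over the GapmeR samples was 0.78 on the log2 scale for Srsf5, at percentile 99.7 of the 4301 genes with at least 50 CPM, whose median range was 0.20. For Srsf3 it was 0.48, at percentile 96.0, and for Srsf10 it was 0.21, at percentile 53.3. These percentiles describe the libraries, since genes measured in the same samples are not independent.

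**Figure D3:**
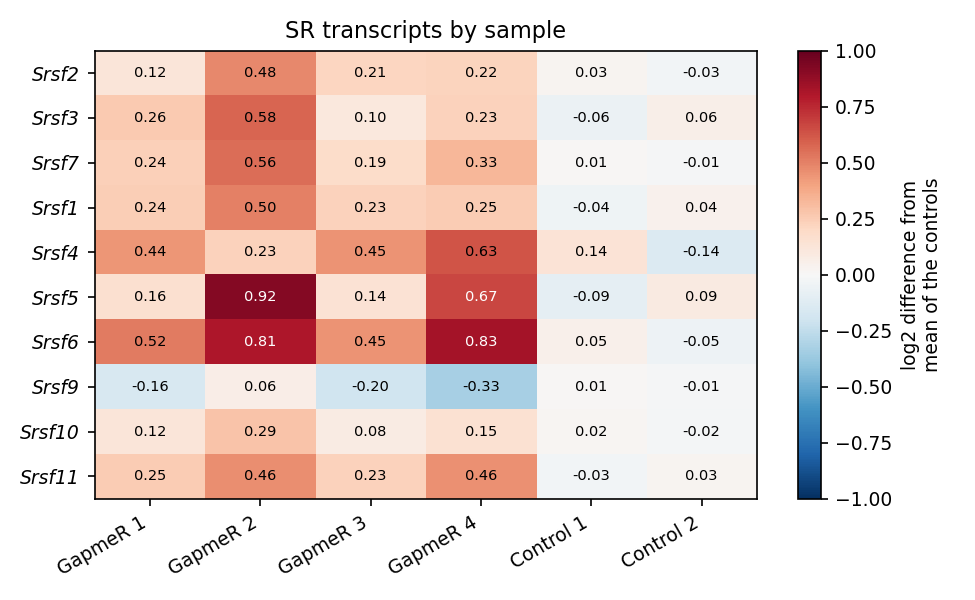
Log2 difference of each SR gene from the mean of the controls, in each of the 6 samples, as a colour and a printed value. GapmeR 2 reaches 0.92 for Srsf5 and 0.81 for Srsf6, and its median over the 10 genes, 0.49, is above those of the other GapmeR samples.

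The summed level of the 10 members was 1584, 1997, 1549 and 1704 CPM with the GapmeR, and 1378 and 1403 CPM in the controls. The groups did not overlap, and GapmeR 2 was the highest. The GapmeR mean was 1709 ± 204 CPM (SD, n = 4) and the control mean 1390 ± 17.7 CPM (SD, n = 2), a ratio of 1.23, and the ratio was 1.36 without TMM scaling. In a culture measured in bulk, more cells with a transcript and more transcript per cell cannot be told apart.

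Levels of different genes were compared per kilobase of merged exons. On this scale Srsf2 was first in both groups, at 90.8 ± 10.0 CPM per kb with the GapmeR and 75.6 ± 2.24 in the controls. Srsf3, Srsf1 and Srsf5 followed, and Srsf11, Srsf10 and Srsf4 were last, Srsf4 at 2.27 ± 0.257 and 1.67 ± 0.227 CPM per kb. In the GapmeR samples Srsf3 and Srsf1, Srsf1 and Srsf5, Srsf5 and Srsf6, Srsf6 and Srsf7, and Srsf9 and Srsf11 overlapped as neighbours in the order, and in the controls Srsf3 and Srsf1, and Srsf9 and Srsf7, did so. The order depends on the length used. Merged exons were those of GENCODE on GRCm39, while the counts were made on mm10. For Srsf9 they come to 10057 bases, more than its RefSeq interval on mm10, chr5:115327163-115333843. The same holds for Srsf5 and Srsf6, so these lengths may not match the exons counted. With the length of the canonical transcript Srsf9 was first, at 139 ± 16.2 CPM per kb with the GapmeR and 154 ± 1.52 in the controls. On this length its GapmeR samples overlapped those of Srsf2, while its controls did not.

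Each member's share of the family's counts per kb does not depend on scaling between samples, but it does depend on the lengths used. The shares of a sample add up to the whole, so a member that rises less than the family total loses share. Srsf9 had a lower share with the GapmeR. It was 6.10%, 5.57%, 5.97% and 4.96% with the GapmeR, against 7.85% and 7.66%. No GapmeR sample reached the controls, and the means differed by -2.11 percentage points (5.65% ± 0.513, n = 4, and 7.76% ± 0.135, n = 2). Srsf6 went the other way, with 8.44%, 8.06%, 8.07% and 9.59% against 6.98% and 6.43%, a difference of 1.83 points. The share of Srsf10 was also lower in every GapmeR sample, with a difference of -0.249 points between the means. Its level in CPM was nevertheless higher in every GapmeR sample than in both controls. The remaining 7 members overlapped, among them Srsf2, with mean shares of 31.6% and 32.7%. For Srsf9 the groups stayed apart with canonical transcript lengths, where its share was 18.4% to 22.1% against 26.5% to 27.3%, as they did for Srsf6. With those lengths the shares of Srsf10 overlapped, at 2.54% to 2.88% against 2.82% to 2.95%, and those of Srsf7 were separated, at 8.28% to 8.46% against 7.67% to 7.89%. No test was run on the shares.

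**Figure D4:**
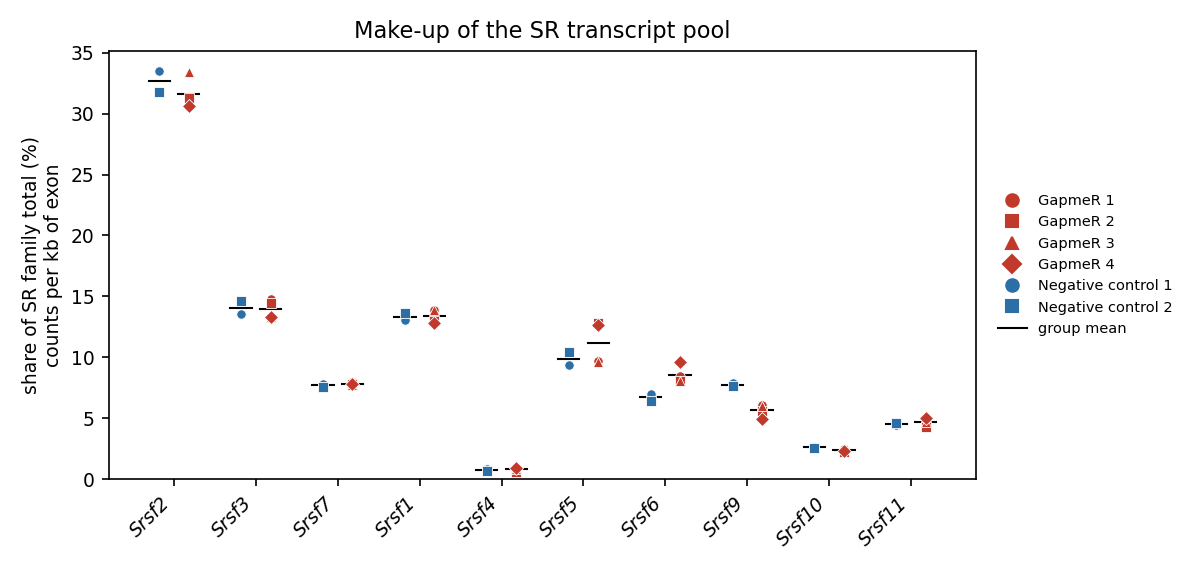
Share of each SR gene in the family's counts per kb of merged exons, in percent, with a point for each of the 6 samples and a line at each group mean. Srsf2 takes the most in every sample, the share of Srsf9 is lower in all 4 GapmeR samples than in both controls, and that of Srsf6 is higher.

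The counts pool all isoforms of a gene. All 10 members have transcripts annotated as targets of nonsense-mediated decay, a median of 51.1% of a member's transcripts, while 55.1% of 21367 protein-coding genes have any, with a median of 10.3%. For Srsf5 these are 55 of 97 transcripts and for Srsf9 29 of 35. The members have 11 (Srsf6) to 97 (Srsf5) annotated transcripts. The comparison did not match genes by that number, on which having any decay target depends. Whether productive or decay-targeted isoforms made up the differences cannot be told from gene counts.

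Exons of 8 members overlap exons of a gene on the other strand, and the strand setting of the counting is not given in the sources used here, so reads of the partners may be shared or left out. The exceptions were Srsf6 and Srsf7. The partners whose exons overlap those of Srsf10 were not among the genes of the count table. Srsf2 overlaps Mfsd11, with 1330 to 1557 counts with the GapmeR and control counts of 1378 and 1457, and Mettl23, with 184 to 260 and 121 and 132. Srsf9 overlaps Gatc, a subunit of a mitochondrial amidotransferase, which had 672 to 836 counts against 615 and 682. Slc10a1, the bile acid transporter of the liver, overlaps Srsf5 and had 20, 38, 12 and 32 counts in GapmeR 1 to 4 and 1 in each control, in the order of Srsf5 itself. Gm12992, a long non-coding RNA over Srsf4, had 15, 38, 36 and 41 counts with the GapmeR and 4 in each control, and Lrrc40, over Srsf11, had 641 to 888 against 518 and 530. Trp53cor1, over Srsf3, had 87 to 110 against 75 and 67. Pseudogene copies of Srsf3, Srsf5 and Srsf10 had at most 48 counts in a sample.

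Genes that act with SR proteins were described from 6 lists, with counts read beside the 45.3% of all genes called. Of 15 kinases, phosphatases and importins of SR proteins, 5 rose and 2 fell, with a median log2 fold change of 0.06. All 4 CLK kinases, which phosphorylate SR proteins in the nucleus, were among those that rose. Clk1 stood at 33.7, 37.9, 29.9 and 35.8 CPM with the GapmeR and at 15.8 and 15.1 CPM in the controls, a log2 fold change of 1.15 (SE 0.10, adjusted p = 1.5e-07). Every GapmeR value of Clk1 was well above both controls. Clk4 rose by 0.96 on the log2 scale (SE 0.10), Clk3 by 0.50 (SE 0.07) and Clk2 by 0.38 (SE 0.13).

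The cytoplasmic kinases did not pass, with log2 fold changes of 0.15 for Srpk1 (adjusted p = 0.14) and -0.04 for Srpk2 (adjusted p = 0.69). Tnpo3 rose by 0.23 on the log2 scale (SE 0.07, adjusted p = 0.019). The genes that fell were Ppp1cb, a catalytic subunit of protein phosphatase 1, with a log2 fold change of -0.35 (adjusted p = 0.0012), and Prpf4b, a kinase of the spliceosome, with -0.19 (adjusted p = 0.036). The count of 7 called was 4 without either control.

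Of 28 SR-related proteins, 9 rose and 1 fell, with a median of 0.15. Tra2b, a splicing activator built like an SR protein, measured 178, 214, 173 and 178 CPM against 116 in each control, a log2 fold change of 0.67 (SE 0.09, adjusted p = 1.3e-05), close to that of Srsf6. Rsrc2 rose by 0.83 and Scaf8, a regulator of transcript termination, by 0.61, while Rsrc1 had a log2 fold change of -0.59. Of 26 hnRNP proteins, RNA-binding proteins that often oppose SR proteins at exons, 5 rose and 6 fell, with a median of 0.02. The largest changes in this list were rises, 1.77 for Ptbp2, the neuronal polypyrimidine tract binding protein, 1.03 for Hnrnph3, 1.03 for Hnrnpa2b1 and 0.99 for Hnrnph1. Without negative control 2 the hnRNP count went from 11 called to 6.

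Splice site recognition factors showed few calls. Of 21, 1 rose and 3 fell, with a median of -0.08. Sf1, which binds the branch point, rose by 0.38, and the subunits of the U2 particle Sf3a2, Sf3a1 and Sf3b4 had log2 fold changes of -0.58, -0.34 and -0.27. The count of 4 was 2 without either control and 7 without GapmeR 2.

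Of 15 factors of nonsense-mediated decay and the exon junction complex, 4 rose and none fell, with a median of 0.08. Among them, Smg1, the kinase of Upf1, rose by 0.84 (SE 0.08, adjusted p = 2e-07), Smg6, the endonuclease, by 0.52, and Upf2 by 0.27, although the groups of Upf2 overlapped. Scaling by library size alone gave 8 calls in this list. Of 16 mRNA export factors, 7 rose and 2 fell, with a median of 0.13. Thoc6, a subunit of the THO complex, rose by 1.68 (SE 0.09, adjusted p = 2.2e-10), from 15.4 and 15.8 CPM in the controls to 53.6, 49.6, 49.5 and 47.1 CPM. Zc3h11a, Thoc2 and Thoc1 rose by 0.54, 0.45 and 0.38. The export count of 9 was 5 without negative control 1 and 6 without negative control 2.

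**Figure D5:**
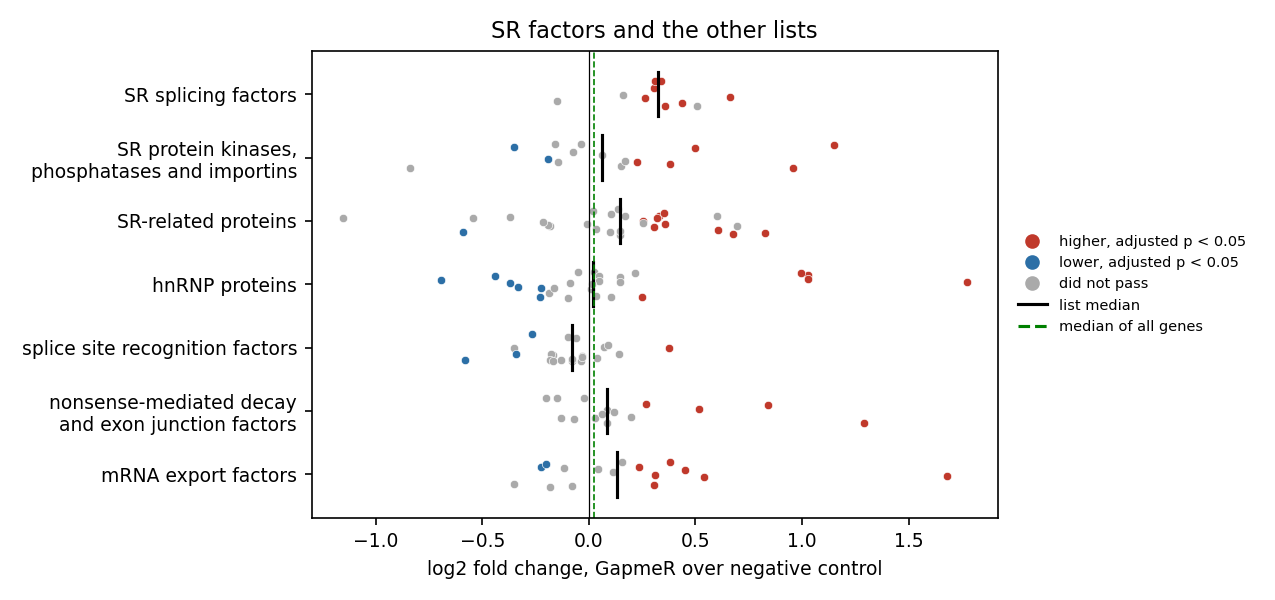
Log2 fold change, GapmeR over negative control, of every tested gene of the SR family and the 6 lists, with red points for genes called higher, blue for lower and grey for those that did not pass, a black line at each list's median and a dashed line at the median of all genes. The SR genes have a median of 0.32, and the 6 lists have medians from -0.08 to 0.15.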

How the data were processed

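RNA of bEND.3 cells was sequenced in paired reads after ribodepletion. The authors ran bcbio-nextgen, with STAR alignment of the trimmed reads to mm10 and transcripts from Ensembl, and the submitters' processing notes name Trimmomatic 0.36, STAR 2.5.2b and Subread 1.5.2. The deposited values are raw read counts per Ensembl gene. 1 further column of per-sample counts, headed with the letter of the control columns, matches no sample label and was not used. The study gives n = 4 per group, and 2 controls were analysed here.

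Genes reaching 5 counts in 2 or more samples were fitted with edgeR 4.0.16 in R 4.3.3 (TMM, robust quasi-likelihood, Benjamini-Hochberg over 18234 genes, threshold 0.05). The SE is the log2 fold change's size divided by the square root of F. DESeq2 1.42.0 and limma 3.58.1 were alternatives, and the edgeR code was tested on simulated data. Replicates differed by more than sampling noise (chi-square per degree of freedom 5.41 to 25.2). Exon lengths, overlaps and decay annotations came from GENCODE on GRCm39, and gene coordinates and promoters from RefSeq on mm10. The members and lists were chosen with earlier results of these data known. Named genes were all members, the knockdown target, genes overlapping members, up to 4 called genes per list with the largest change and a mean of at least 1 CPM, and any tested SR kinase, phosphatase or importin. A gene that this rule names is not reported here. Cell type markers came from 5 lists.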

Additional observations from a re-analysis of the deposited data

Results flagged for a closer look

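Among 21 values examined for a sample far from the others of its group, 2 passed Dixon's threshold for 4 samples, and chance passes about 1 in 20. The level of Srsf1 in the GapmeR samples did so because GapmeR 2, at 253 CPM, lay far above the other 3, at 210 to 213 CPM, a gap of 0.929 of the group's range. The share of Srsf4 in the family's counts per kb did so because GapmeR 2, at 0.578%, lay below the other 3, at 0.855% to 0.897%, a gap of 0.868 of the range. Both involve GapmeR 2, the sample in which 8 of 10 members were highest and Srsf4 was lowest.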

How the results depend on the processing

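Of 130 values of the members' fold changes under 13 alternatives, 113 kept their direction and side of the threshold, 9 lost the call, 7 gained it and 1 crossed 0, that of Srsf9 under library size scaling, at 6.26e-06, which is 0 within its SE of 0.09 since that scaling moves all genes by about 0.15. Leaving out 1 sample gave 3 to 8 SR members called, 3 to 8 higher and 0 to 1 lower, 4 to 9 SR kinases, phosphatases and importins, 8 to 13 SR-related proteins, 6 to 13 hnRNP proteins, 2 to 7 splice site factors, 3 to 5 decay factors, 5 to 9 export factors, and a summed shift of shares of 2.84 to 4.41 points in place of 3.52. Over all genes, 8268 calls became 5791 and 5232 without negative control 1 and 2, fits with fewer samples. A change of at least 1.5-fold beside the adjusted p left 1 SR member called, 1 higher, beside 25.4% of all genes. Of the 4301 genes of at least 50 CPM it left 151 higher and 295 lower. In the lists it left 2 kinases, phosphatases and importins, 4 SR-related proteins, 5 hnRNP proteins, 0 splice site factors, 2 decay factors and 1 export factor. The summed shift of shares adds the members' absolute differences between group means and divides by 2. Canonical transcript lengths gave a shift of 6.33 points. On them Srsf9 counts 1170 bases in place of 10057, and its share differed by -6.21 points between the means. Library size scaling moved the median over all genes up by 0.15 on the log2 scale. It gave 8 decay factors in place of 4, with 2135 genes lower in all in place of 3643. Why the scalings differ was not tested. The replicate block, on the 4 samples whose numbers both groups share and with 1 residual degree of freedom, called 9 SR members, all higher, and 16 SR-related proteins in place of 10. Same-numbered samples' deviations correlated at -0.0393 and 0.0932. The deviations of 2 controls from their mean are mirror images, so these values are not separate checks. Whether same-numbered samples share more than a number cannot be told from them. Each member had at least 468 counts in every sample.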
